A study of Homo sapiens with 18 samples.

Results

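The comparison set LX-2 cells kept in serum-free medium for 24 h against LX-2 cells kept in serum-free medium for 4 h, with no thrombin in either group. LX-2 is an established human hepatic stellate cell line. Both groups were chosen by their labels alone: control, 24 h (3 libraries) and control, 4 h (3 libraries), 6 of the 18 libraries of bulk poly(A) RNA in the series. The other 12 were control at 48 h and thrombin at 4, 24 and 48 h, 3 libraries each. Every culture was plated, given a preincubation without serum, and then changed to serum-free medium with or without thrombin, so that the control 4 h group had also been without serum and was no serum-fed baseline. A single cell line stood for the cell type, and the libraries of a group carried the numbers 12, 13 and 14, whose meaning is not stated. No label says that they are separate cultures. The p-values therefore reflect only how far the libraries of a group lay apart, a spread that may be technical.

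Hepatic stellate cells store retinoid in the resting liver. On injury they turn into contractile myofibroblasts, which lay down collagen, secrete chemokines and divide. Serum carries growth factors, lipids and lysophospholipids. In fibroblasts, SRF with its actin-sensing coactivators MRTF responds to these signals, and SREBP responds to the supply of sterol. The time course in control medium addresses how transcripts of such programmes differ between an early and a later time after the medium change.

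Levels are CPM (read counts scaled to library size with TMM factors), which are not divided by gene length, so levels are compared between libraries and not between genes. A fold change is the log2 ratio of control 24 h over control 4 h with its standard error after the ± sign, and a gene is called when its edgeR quasi-likelihood p, adjusted by Benjamini-Hochberg over all 15353 genes tested, is under 0.05. Per-library values follow the order 12, 13, 14. Total counts were 14649813 to 16180176 in the control 24 h libraries and 14742061 to 23270601 in the control 4 h libraries. All 20 stellate cell and myofibroblast markers had a count in at least 1 of the 6 libraries. Their summed level was 6847 to 7253 CPM at 24 h and 7076 to 7785 CPM at 4 h, most of it VIM and COL1A1. LRAT, TCF21, DCN and LUM had too few counts to be tested. DES, PDGFRA and GFAP were low, averaging 2.65, 1.51 and 1.13 CPM at 24 h. Hepatocyte markers summed to 61.8 to 68.2 CPM at 24 h and 65.6 to 66.7 CPM at 4 h, most of it CPS1, with 6 of 16 (APOA2, TTR, FGA, HP, AHSG and CYP3A4) at 0 in all 6 libraries. Endothelial markers summed to 53 to 62.5 CPM at 24 h and 60.6 to 67.7 CPM at 4 h, with CLEC4G and LYVE1 at 0. Macrophage markers summed to 81.2 to 90.8 CPM at 24 h and 82.7 to 100.7 CPM at 4 h, most of it CD68, with 5 of 12 at 0 (CD163, AIF1, VSIG4, C1QA and C1QB). In bulk RNA, fewer cells of a type and less RNA per cell cannot be told apart.

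The labels did not order the 6 groups of the series by treatment. The libraries labelled control 24 h differed from those labelled thrombin 4 h in 11 genes and from those labelled thrombin 48 h in 55 genes. They differed from the libraries labelled control 4 h in 2340 genes. The libraries labelled control 4 h differed from those labelled thrombin 24 h in 513 genes and from those labelled thrombin 4 h in 1813 genes. Between the 2 groups labelled 48 h, edgeR called 0 genes. Every direction below therefore rests on the labels, and "24 h" and "4 h" mean the libraries so labelled. On the first principal component, which held 24.9% of the variance over 18 libraries, the control 24 h libraries scored between 11.1 and 17.8. Within the control 4 h group number 12 stood apart, with a score of -5.62, against -14.8 and -17.4 for numbers 13 and 14. Some results are also given without that library.

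**Figure D1:**
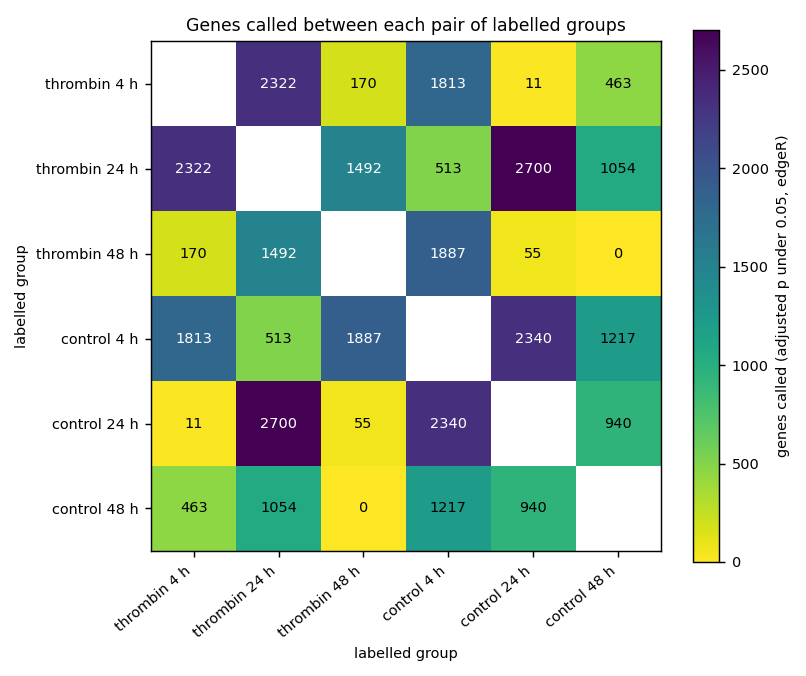
Genes called between each pair of the 6 labelled groups (3 libraries each; cell value and colour, number of genes with an edgeR adjusted p under 0.05). The pair of this comparison, control 24 h and control 4 h, has 2340 calls, and control 24 h against thrombin 4 h has 11.

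Between 24 h and 4 h in serum-free medium, 1243 genes were higher (8.10% of those tested) and 1097 were lower (7.15%), 15.2% in all. Counts within the gene lists below are to be read beside these shares. A count near its share is no result about the list. The lower genes moved further: of 242 called genes that differed at least 2-fold, 162 were lower at 24 h and 80 were higher. The median log2 fold change over all genes tested was -0.01. The 3 libraries of one group lay wholly above those of the other for 5172 genes (33.7%), of which 2228 were called, so that such separation alone was common. At an unadjusted p under 0.05 there were 4473 genes. Leaving out any one of 5 libraries lowered both counts. Without control 24 h number 12 there were 702 higher and 584 lower, and without control 24 h number 13 there were 746 and 657. Without control 4 h number 14 there were 791 and 718, and without control 4 h number 13 there were 846 and 711. Without control 24 h number 14 there were 1088 and 1001. Without number 12 in all 6 groups, 1133 were higher and 1097 lower.

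**Figure D2:**
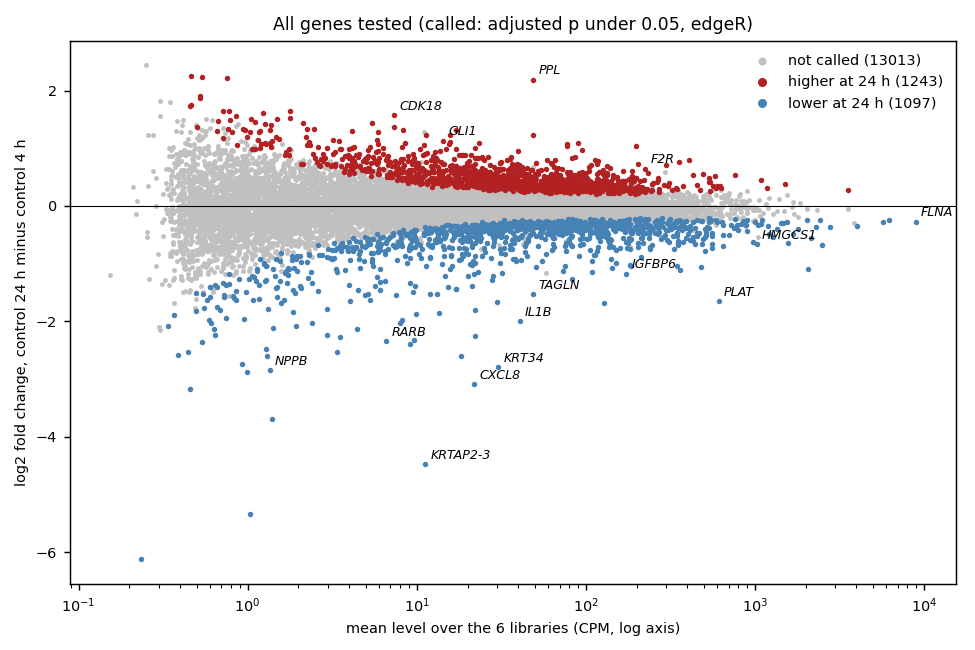
Log2 fold change (control 24 h minus control 4 h) against the mean level over the 6 libraries (CPM, log axis) for the 15353 genes tested; red points were called higher at 24 h (1243), blue points called lower (1097), grey points not called. KRTAP2-3, CXCL8 and NPPB lie furthest below 0 among the labelled genes and PPL furthest above.

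Among genes with at least 5 CPM in the higher group and no overlap of groups, the 12 that fell furthest held 3 hair keratin or keratin-associated genes and the sarcomeric gene MYPN. KRTAP2-3, a hair keratin-associated protein gene with near-identical copies whose level is uncertain for that reason, had 0.134, 0.660 and 1.98 CPM in the control 24 h libraries and 12.4, 24.5 and 27.5 CPM in the control 4 h libraries (log2 fold change -4.48 ± 0.49, edgeR adjusted p = 1.95e-05). The hair keratin gene KRT34 had 4.88, 6.47 and 11.4 CPM at 24 h, against 37.0, 58.6 and 63.4 CPM at 4 h (log2 fold change -2.79 ± 0.27, edgeR adjusted p = 4.55e-06). All 3 libraries at 24 h lay below all 3 at 4 h for both genes, as the rule of choice required. KRT81, a further hair keratin, had 8.29, 7.99 and 6.73 CPM at 24 h, against 34.5, 37.2 and 37.8 CPM at 4 h (log2 fold change -2.25 ± 0.19, edgeR adjusted p = 7.77e-08). MYPN, which encodes the sarcomeric protein myopalladin, had 2.47, 2.64 and 4.38 CPM at 24 h, against 13.4, 16.3 and 18.7 CPM at 4 h (log2 fold change -2.33 ± 0.19, edgeR adjusted p = 1.52e-08). Neither gene's groups overlapped, which the rule also required, and the highest 24 h library for MYPN was number 14. ESM1, the secreted proteoglycan endocan, had 2.74, 5.08 and 7.75 CPM at 24 h, against 15.3, 45.5 and 33.9 CPM at 4 h (log2 fold change -2.60 ± 0.51, edgeR adjusted p = 0.00398). Control 4 h number 12 was the lowest of its group for ESM1, and still above every 24 h library. The 12 largest falls also held CXCL8, RARB and SERPINB2, which are described with their families, and BTBD11 (-2.39), RELN (-2.28), FCRLB (-2.14) and the non-coding LINC01638 (-2.03).

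By the same rule, the largest rises were smaller in size. PPL, which encodes periplakin, a plakin that links intermediate filaments to cell junctions, had 92.1, 86.4 and 61.1 CPM in the control 24 h libraries and 25.4, 14.3 and 12.9 CPM in the control 4 h libraries (log2 fold change 2.19 ± 0.25, edgeR adjusted p = 3.31e-05). CDK18, a kinase of the PCTAIRE family, had 12.5, 11.4 and 9.31 CPM at 24 h, against 4.09, 3.93 and 2.99 CPM at 4 h (log2 fold change 1.58 ± 0.16, edgeR adjusted p = 3.56e-07). For both genes the lowest 24 h library was above the highest 4 h library by more than 2-fold. TMOD1, a protein that caps the pointed ends of actin filaments, had 9.16, 6.93 and 7.69 CPM at 24 h, against 2.72, 3.04 and 2.92 CPM at 4 h (log2 fold change 1.45 ± 0.17, edgeR adjusted p = 2.89e-06). SVIL, the actin- and membrane-binding protein supervillin, had 73.8, 72.8 and 60.4 CPM at 24 h, against 25.1, 36.1 and 26.4 CPM at 4 h (log2 fold change 1.23 ± 0.12, edgeR adjusted p = 1.50e-07). The groups of both genes were apart, again as the rule required. The 12 largest rises also held MIAT (1.36), a long non-coding RNA, PLXDC1 (1.32) and the unconventional myosin gene MYO7A (1.31). They also held the lysosomal protease gene CTSS (1.30), the synaptic adhesion gene SLITRK4 (1.28), CRACD (1.23), RIPOR3 (1.22) and the interleukin-22 receptor gene IL22RA1 (1.14). MIAT was not called without control 24 h number 12.

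**Figure D3:**
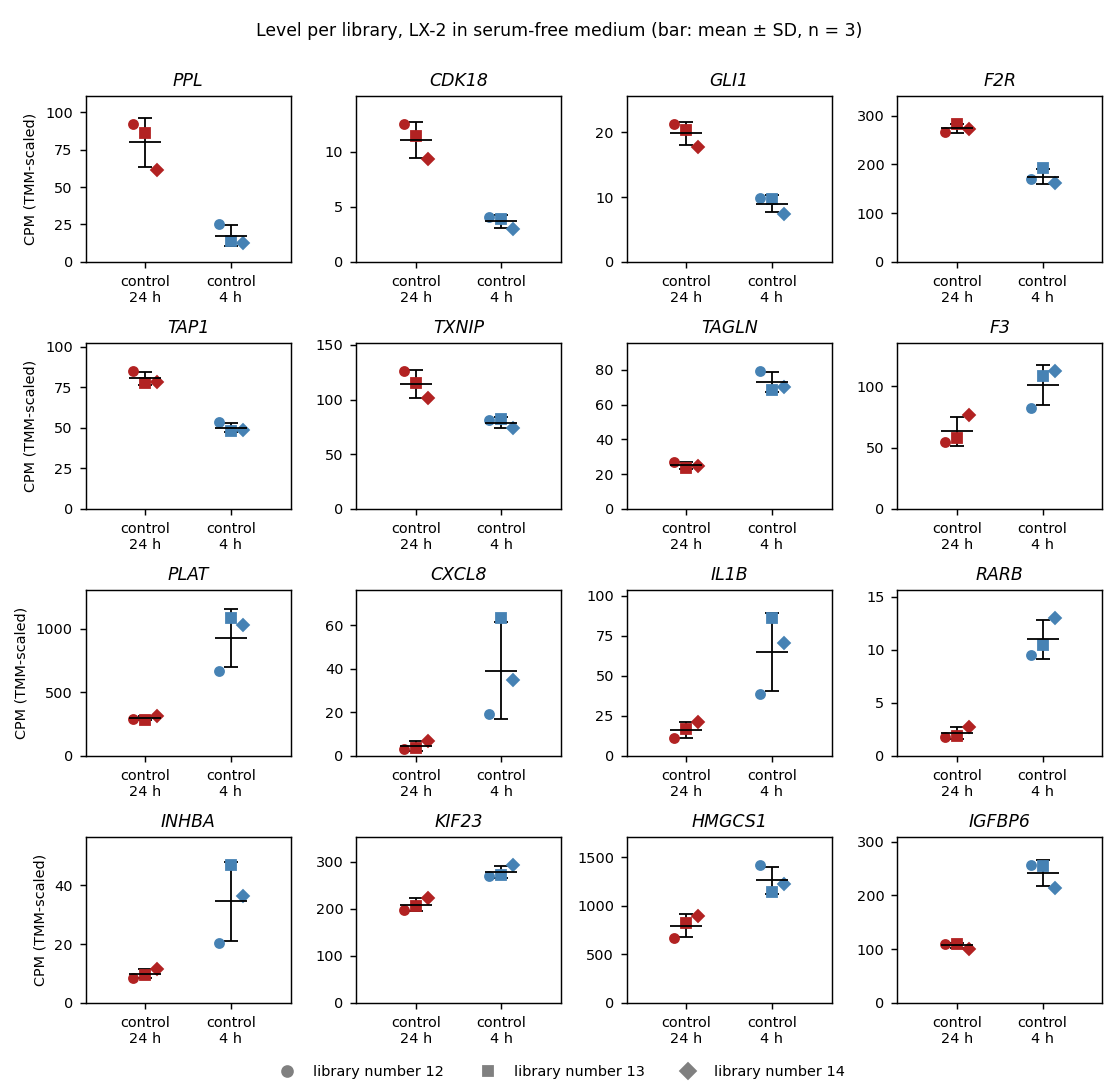
Level of 16 genes in each of the 6 libraries (CPM, axes from 0; points, libraries 12, 13 and 14; bars, mean ± SD, n = 3), control 24 h left of control 4 h. The groups do not overlap for any gene shown, and control 4 h number 12 is the lowest of its group for CXCL8, IL1B, PLAT, F3 and INHBA.

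Actin cytoskeleton genes that SRF and MRTF are known to drive were mostly lower at 24 h. Of 26 such genes tested, 14 fell, 2 rose and 10 were not called, with a median log2 fold change of -0.28, against -0.01 over all genes, of which 7.15% fell. The count of falls was 9 without control 24 h number 13, 8 without control 4 h number 13 and 9 without control 4 h number 14. TAGLN, the actin-binding protein transgelin, moved furthest, with 27.3, 23.6 and 24.6 CPM at 24 h, against 79.4, 68.7 and 70.4 CPM at 4 h (log2 fold change -1.53 ± 0.13, edgeR adjusted p = 1.44e-08). The tropomyosin gene TPM1 had 405, 403 and 426 CPM at 24 h, against 619, 607 and 574 CPM at 4 h (log2 fold change -0.54 ± 0.08, edgeR adjusted p = 2.65e-05). MYL9, the regulatory light chain of non-muscle and smooth muscle myosin, had 417, 405 and 369 CPM at 24 h, against 641, 570.4 and 558 CPM at 4 h (log2 fold change -0.57 ± 0.09, edgeR adjusted p = 7.90e-05). In all 3 genes the groups stood clear of each other and the libraries of a group differed little. FHL2, a LIM protein that binds actin regulators, had 184, 186 and 192 CPM at 24 h, against 252, 273 and 257 CPM at 4 h (log2 fold change -0.48 ± 0.07, edgeR adjusted p = 4.88e-05). CALD1 (-0.59), ACTG2 (-1.11), ACTN1 (-0.35), CSRP1 (-0.30), TLN1 (-0.32), TPM2 (-0.33) and TPM4 (-0.23) were also lower.

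Of the 5 most abundant transcripts that fell, 4 belong to the actomyosin system and the other encodes a tubulin, TUBA1B (-0.37). FLNA, which encodes the actin cross-linker filamin A, averaged 8108 ± 125 CPM at 24 h and 9813 ± 861 CPM at 4 h. MYH9, the heavy chain of non-muscle myosin, averaged 5713 ± 139.9 CPM at 24 h and 6779 ± 577 CPM at 4 h. The cytoplasmic actins ACTG1 (5196 ± 116 CPM at 24 h and 6341 ± 101 CPM at 4 h) and ACTB (3555 ± 39.3 CPM at 24 h and 4545 ± 132 CPM at 4 h), whose reads can be divided with pseudogenes, were lower by log2 -0.29 and -0.35. FLNA (-0.28, edgeR adjusted p = 0.0234) and MYH9 (-0.25, edgeR adjusted p = 0.0472) were near the threshold. Both lost their calls without any one library other than control 4 h number 12, and MYH9 also with DESeq2 size factors and in the fit of the 9 control libraries. The myofibroblast marker ACTA2, smooth muscle actin, gave no call, with 11.8, 10.8 and 9.73 CPM at 24 h, against 10.8, 10.9 and 11.4 CPM at 4 h (log2 fold change -0.04 ± 0.14, edgeR adjusted p = 0.897), and its groups overlapped. SRF itself (0.40) and FILIP1L (0.73) were the 2 members that rose.

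A CArG box, the 10-base site that SRF is known to bind, was sought by name on both strands between 250 bases before and 50 after the first listed start of each gene (RefSeq, GRCh38.p14; 126 of the 167 genes named by rule had a promoter entry). It was found in 5 of the 12 SRF and MRTF list members that fell and had an entry (TPM4, ACTG1, ACTG2, FLNA and FHL2). Of the 24 list members tested with an entry, 9 held it, as did 1.29% of all 27305 promoters. The list was assembled from known SRF targets, so the match describes the list and not the change. RefSeq lists 4 starts for FHL2, and the first listed was used. The 200 bases before the start of 2 of the genes with a box are shown because they carry it (capitals) close to the start:
ACTG1 (chr17:81512800-81512999, minus strand): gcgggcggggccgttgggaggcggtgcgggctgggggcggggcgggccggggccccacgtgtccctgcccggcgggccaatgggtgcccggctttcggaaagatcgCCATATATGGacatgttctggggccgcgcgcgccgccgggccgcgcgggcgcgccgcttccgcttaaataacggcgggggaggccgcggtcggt
FHL2 (chr2:105438514-105438713, minus strand): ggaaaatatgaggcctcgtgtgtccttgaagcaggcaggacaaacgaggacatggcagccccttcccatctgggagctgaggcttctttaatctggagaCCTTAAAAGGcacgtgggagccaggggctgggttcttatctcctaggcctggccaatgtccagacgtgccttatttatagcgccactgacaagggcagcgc

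YAP and TAZ, cofactors that also follow actin tension, had 22 targets tested, of which 7 were lower, 1 was higher (3 by DESeq2, and 2 without a filter, in the fits of the 6 or the 9 control libraries, without control 4 h number 13 or without number 12 in all groups) and the median was -0.15. IGFBP3, an IGF-binding protein, had 2.81, 2.90 and 3.78 CPM at 24 h, against 6.99, 9.84 and 7.86 CPM at 4 h (log2 fold change -1.38 ± 0.17, edgeR adjusted p = 4.62e-06). DLC1, a GTPase-activating protein, averaged 223 ± 16.0 CPM at 24 h and 333 ± 74.0 CPM at 4 h (log2 fold change -0.58 ± 0.12, edgeR adjusted p = 0.00126). RBMS3, an RNA-binding protein, averaged 21.5 ± 0.500 CPM at 24 h and 34.9 ± 4.35 CPM at 4 h (log2 fold change -0.70 ± 0.13, edgeR adjusted p = 4.77e-04). The groups of these 3 genes were apart. The well-known targets CCN1 and CCN2 were not called. CCN1 had 298, 353 and 392 CPM at 24 h, against 382, 428 and 399 CPM at 4 h (log2 fold change -0.21 ± 0.09, edgeR adjusted p = 0.117). CCN2 had 90.8, 108 and 119 CPM at 24 h, against 112, 152 and 124 CPM at 4 h (log2 fold change -0.29 ± 0.13, edgeR adjusted p = 0.124). The groups of both overlapped, though CCN1 was called lower without control 24 h number 14. CCN2 was called lower without control 4 h number 12, without number 12 in all groups or without a filter on low counts. It was also called lower with a replicate block in the 6 libraries. The TEAD motif GGAATG was in none of the 5 falling members with a promoter entry and in 14% of all promoters. Of the 17 list members tested with an entry, 5 held it.

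Several chemokine transcripts fell. Of 14 chemokine genes listed, 11 were tested, 6 fell and none rose, and the median was -1.44. Without a filter on low counts, 14 were tested and 1 was called higher. CXCL8, interleukin-8, which draws neutrophils, had 3.07, 3.63 and 7.03 CPM in the control 24 h libraries and 19.2, 63.2 and 35.0 CPM in the control 4 h libraries (log2 fold change -3.09 ± 0.49, edgeR adjusted p = 9.86e-04). CXCL1, a neutrophil chemokine of the same family, had 9.16, 9.24 and 9.25 CPM at 24 h, against 15.0, 35.4 and 24.1 CPM at 4 h (log2 fold change -1.44 ± 0.25, edgeR adjusted p = 8.57e-04). The 24 h libraries held nearly one value for CXCL1, while control 4 h number 12 was the lowest of its group for both genes. CXCL6, another ligand of the CXCL8 receptors, had 3.88, 4.88 and 4.08 CPM at 24 h, against 12.4, 19.8 and 14.4 CPM at 4 h (log2 fold change -1.87 ± 0.19, edgeR adjusted p = 2.27e-07). CCL26, an eosinophil chemokine, had 0.535, 0.858 and 0.781 CPM at 24 h, against 2.90, 2.52 and 4.03 CPM at 4 h (log2 fold change -2.09 ± 0.33, edgeR adjusted p = 9.34e-05). CXCL3 (-1.80) and CCL7 (-1.62) were lower as well. CCL2, the monocyte chemokine, had 7.02, 4.95 and 5.17 CPM at 24 h, against 8.35, 12.7 and 5.77 CPM at 4 h (log2 fold change -0.68 ± 0.24, edgeR adjusted p = 0.0577). Its groups overlapped, and it was called lower by DESeq2, without a filter and without control 4 h number 14. With a replicate block, in all 18 libraries or in the 6, CCL2 was also called lower. CXCL12 (0.31), CXCL2 (-0.32), CCL5 (0.14) and CXCL5 (-0.05) were not called.

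The inflammatory cytokine IL1B had 11.0, 17.0 and 21.0 CPM in the control 24 h libraries and 38.6, 86.3 and 70.6 CPM in the control 4 h libraries (log2 fold change -2.00 ± 0.33, edgeR adjusted p = 0.00120). IL33, an alarmin of the IL-1 family, had 1.2, 1.65 and 1.2 CPM at 24 h, against 2.19, 4.24 and 3.13 CPM at 4 h (log2 fold change -1.26 ± 0.29, edgeR adjusted p = 0.00384). Both genes' groups were apart, with control 4 h number 12 the nearest to the 24 h libraries, and IL33 was not called without control 4 h number 13. LIF, of the IL-6 family, averaged 8.43 ± 1.04 CPM at 24 h and 15.6 ± 7.12 CPM at 4 h (log2 fold change -0.91 ± 0.24, edgeR adjusted p = 0.0139). The call of LIF was lost without control 24 h number 12 or 13 or control 4 h number 13, and in the fits of the 6 or the 9 control libraries. In all, 3 of 16 IL-6 and IL-1 family genes fell (1 without control 4 h number 13). The transcription factor gene STAT3 rose (0.37), and was not called without control 24 h number 12, control 4 h number 14 or number 12 in all groups. IL6 itself was near 0, with 0.334, 0.594 and 0.360 CPM at 24 h, against 1.60, 0.838 and 0.209 CPM at 4 h. It was not called, and was called lower without control 4 h number 14.

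AP-1 sites (TGANTCA, both strands, a motif chosen after the values were seen) were in 2 of the 6 chemokine genes that fell, CCL7 and CXCL8, and in 7.76% of all promoters. The stretch before the CXCL8 start is shown because it belongs to the chemokine with the largest fall; capitals mark the AP-1 letters:
CXCL8 (chr4:73740369-73740568, plus strand): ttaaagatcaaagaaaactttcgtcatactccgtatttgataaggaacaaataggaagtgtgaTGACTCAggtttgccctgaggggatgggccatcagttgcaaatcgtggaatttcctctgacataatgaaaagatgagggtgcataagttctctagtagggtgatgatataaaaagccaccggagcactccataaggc

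Some feedback and target genes of NF-kappa-B were higher at 24 h. Of 21 tested, 5 rose and 3 fell, with a median of 0.18, where 8.10% of all genes rose and 7.15% fell. NFKB2, a subunit of the non-canonical NF-kappa-B pathway, had 159, 166 and 158 CPM at 24 h, against 117, 111 and 95.4 CPM at 4 h (log2 fold change 0.58 ± 0.10, edgeR adjusted p = 2.66e-04). Its partner RELB had 51.3, 40.6 and 39.5 CPM at 24 h, against 32.9, 32.0 and 27.0 CPM at 4 h (log2 fold change 0.51 ± 0.12, edgeR adjusted p = 0.00591). The groups did not overlap for either gene. ICAM1 (0.59), CD83 (0.40) and TNIP1 (0.26) were also higher. The regulators TNFAIP3 (-0.55) and NFKBIZ (-0.37) and the ubiquitin ligase gene BIRC2 (-0.38) were lower. This list depended on single libraries. The number that rose was 2 without control 24 h number 12 or 13, 3 without control 4 h number 14 and 1 without number 12 in all groups. The number that fell was 0 without control 24 h number 12 or 13 or control 4 h number 13 or 14. RELB, ICAM1 and CD83 were among the calls lost.

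Interferon-stimulated genes were higher in part. Of 30 tested, 10 rose, 1 fell and 19 were not called. Of the 30, 25 had a positive fold change and the median was 0.31. The count of rises was 6 without control 24 h number 13 and 5 without control 4 h number 14. TAP1, the peptide transporter of antigen presentation, had 85.0, 77.9 and 78.4 CPM at 24 h, against 53.6, 48.3 and 48.5 CPM at 4 h (log2 fold change 0.68 ± 0.09, edgeR adjusted p = 1.52e-05). STAT2, a transcription factor of interferon signalling, had 114, 111 and 114 CPM at 24 h, against 93.6, 78.1 and 80.0 CPM at 4 h (log2 fold change 0.43 ± 0.08, edgeR adjusted p = 5.29e-04). The antiviral effector IFIT2 had 20.6, 22.5 and 26.7 CPM at 24 h, against 12.7, 13.6 and 11.3 CPM at 4 h (log2 fold change 0.89 ± 0.16, edgeR adjusted p = 6.31e-04). Each of these genes was higher in every 24 h library than in any 4 h library. BST2 (0.63), MX1 (0.61), IFI44 (0.58), ISG20 (0.53), IRF1 (0.43), IFITM1 (0.46) and PSMB9 (0.36) made up the rest. SAMD9, the member that fell, had 81.8, 101 and 120.5 CPM at 24 h, against 149.5, 223 and 226 CPM at 4 h (log2 fold change -0.98 ± 0.15, edgeR adjusted p = 1.07e-04). IFIT1 (0.13) and ISG15 (0.32) were not called.

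Several genes of fibrinolysis and coagulation fell, where 7.15% of all genes tested fell and 8.10% rose. Of 19 listed, 16 were tested, 6 fell and 2 rose (1 without control 24 h number 12 or 13). PLAT, tissue plasminogen activator, had 291, 282 and 313 CPM in the control 24 h libraries and 666, 1086 and 1029.6 CPM in the control 4 h libraries (log2 fold change -1.65 ± 0.14, edgeR adjusted p = 9.40e-08). Control 4 h number 12 lay below numbers 13 and 14 and above every 24 h library. F3, tissue factor, which starts coagulation, had 54.7, 58.2 and 76.9 CPM at 24 h, against 82.4, 108 and 113 CPM at 4 h (log2 fold change -0.67 ± 0.14, edgeR adjusted p = 0.00171). THBD, thrombomodulin, the cofactor by which thrombin activates protein C, had 0.735, 0.792 and 0.901 CPM at 24 h, against 1.18, 3.62 and 3.96 CPM at 4 h (log2 fold change -1.84 ± 0.42, edgeR adjusted p = 0.00405). SERPINB2, plasminogen activator inhibitor 2, had 0.601, 0.462 and 1.86 CPM at 24 h, against 3.14, 7.99 and 6.12 CPM at 4 h (log2 fold change -2.53 ± 0.55, edgeR adjusted p = 0.00532). THBD and SERPINB2 were at a few CPM or less, and control 4 h number 12 was nearest to the 24 h libraries for both. ANXA2, a plasminogen receptor subunit with pseudogenes that can share its reads, averaged 418 ± 30.7 CPM at 24 h and 695 ± 15.2 CPM at 4 h (log2 fold change -0.73 ± 0.10, edgeR adjusted p = 1.79e-05). SERPINE2, a thrombin-inhibiting serpin, rose, averaging 158 ± 17.6 CPM at 24 h and 108 ± 9.09 CPM at 4 h (log2 fold change 0.54 ± 0.10, edgeR adjusted p = 3.25e-04), as did F10 (0.68).

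PAR1 and PAR2, receptors that proteases cleave, were higher at 24 h, PAR2 with a call that several settings lost. F2R, the thrombin receptor PAR1, had 266, 283 and 273 CPM in the control 24 h libraries and 169.6, 192 and 162 CPM in the control 4 h libraries (log2 fold change 0.65 ± 0.08, edgeR adjusted p = 2.89e-06). F2RL1, PAR2, which trypsin-like proteases cleave, had 8.62, 5.94 and 7.39 CPM at 24 h, against 4.56, 5.91 and 3.34 CPM at 4 h (log2 fold change 0.64 ± 0.21, edgeR adjusted p = 0.0401). For F2R the groups were far apart. For F2RL1 the lowest 24 h library and the highest 4 h library nearly met, and its call was lost with limma-voom, without control 24 h number 12 or 14, without control 4 h number 12 or 14, and without number 12 in all groups. F2RL2, PAR3, had 1.74, 0.990 and 0.961 CPM at 24 h, against 1.18, 1.37 and 1.88 CPM at 4 h, with overlapping groups and no call. Of 13 receptor and coupling genes tested, 3 rose and none fell. The remaining riser was ARRB1 (0.45), a beta-arrestin that turns receptors off.

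Retinoid genes moved both ways. Of 13 tested, 4 fell and 4 rose. RARB, a retinoic acid receptor whose own gene is a textbook target of retinoic acid, had 1.80, 1.85 and 2.76 CPM at 24 h, against 9.48, 10.5 and 13.0 CPM at 4 h (log2 fold change -2.34 ± 0.21, edgeR adjusted p = 4.78e-08). DHRS3, an enzyme that reduces retinal to retinol, had 1.34, 1.12 and 0.661 CPM at 24 h, against 6.34, 4.72 and 3.62 CPM at 4 h (log2 fold change -2.25 ± 0.27, edgeR adjusted p = 3.42e-06). CYP26B1, which degrades retinoic acid, had 10.4, 9.97 and 7.63 CPM at 24 h, against 19.2, 18.6 and 18.6 CPM at 4 h (log2 fold change -1.02 ± 0.14, edgeR adjusted p = 2.50e-05). The groups were apart for these genes, and RARB was several times lower in each 24 h library than in any 4 h library. ALDH1A3, which makes retinoic acid, averaged 13.8 ± 0.931 CPM at 24 h and 27.7 ± 5.44 CPM at 4 h (log2 fold change -1.01 ± 0.13, edgeR adjusted p = 5.85e-06). The receptors RARA (0.35), RARG (0.54) and RXRA (0.42) and the lipid droplet coat gene PLIN2 (0.84) rose. LRAT, the enzyme that stores retinol as ester and a marker of resting stellate cells, had too few counts to be tested.

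The retinoic acid response element, a direct repeat with a 5-base spacer that was sought by name after the values were seen, occurred in RARB among the 4 falling genes, all of which had a promoter entry, and in 0.0806% of all promoters. RefSeq lists 4 starts for RARB, and the first listed was used, which lies inside the span of the gene. Capitals mark the repeat and its spacer, shown as the match in the list:
RARB (chr3:25428063-25428262, plus strand): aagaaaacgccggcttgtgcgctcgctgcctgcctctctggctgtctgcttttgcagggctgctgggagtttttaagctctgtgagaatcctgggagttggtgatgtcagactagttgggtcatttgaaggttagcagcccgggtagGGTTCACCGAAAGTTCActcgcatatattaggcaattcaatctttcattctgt

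TGF-beta, BMP and activin genes fell more often than they rose, where 7.15% of all genes tested fell and 8.10% rose. Of 21 TGF-beta and SMAD response genes, 6 fell and 2 rose (1 without any one of control 24 h number 12 or 13 or control 4 h number 13 or 14), with a median of 0.00. TGFBI, a matrix protein induced by TGF-beta, had 239, 232 and 213 CPM at 24 h, against 489, 539 and 451 CPM at 4 h (log2 fold change -1.11 ± 0.11, edgeR adjusted p = 1.31e-07). SMAD3, which carries the TGF-beta signal to the nucleus, had 354, 342 and 326 CPM at 24 h, against 464, 548 and 553 CPM at 4 h (log2 fold change -0.61 ± 0.08, edgeR adjusted p = 1.68e-05). For both the groups were apart. The inhibitory SMAD7 (-0.36) and SMAD6 (-0.50) and the repressor SKI (-0.31) fell too, while the ligand TGFB1 (0.28) and the co-receptor TGFBR3 (0.44, not called without number 12 in all groups) rose. Of 16 BMP and activin genes, 4 fell and 1 rose (0 without control 24 h number 12 or control 4 h number 14, 2 without control 4 h number 12). INHBA, the activin A subunit, had 8.55, 9.64 and 11.6 CPM at 24 h, against 20.3, 46.9 and 36.4 CPM at 4 h (log2 fold change -1.80 ± 0.25, edgeR adjusted p = 1.26e-04). ID1, a classical BMP target that blocks differentiation factors, had 8.75, 10.3 and 7.57 CPM at 24 h, against 14.8, 24.2 and 22.9 CPM at 4 h (log2 fold change -1.22 ± 0.22, edgeR adjusted p = 5.72e-04). Control 4 h number 12 was the lowest of its group for INHBA and ID1 and above all 24 h libraries. INHBB (-1.04) and ID2 (-0.69) also fell, and SMAD1 (0.48) rose.

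Matrix genes changed in both directions, where 7.15% of all genes tested fell and 8.10% rose. Of 21 collagen chains, 4 fell (2 without control 24 h number 14) and 3 rose (1 without control 24 h number 12 or control 4 h number 14, 5 by limma-voom). COL1A1, the main fibrillar collagen chain of scar, averaged 2009.8 ± 238 CPM at 24 h and 2578 ± 182 CPM at 4 h (log2 fold change -0.36 ± 0.10, edgeR adjusted p = 0.0168). Its call was lost without control 24 h number 14 or control 4 h number 12. COL5A1 averaged 292 ± 21.9 CPM at 24 h and 404 ± 20.2 CPM at 4 h (log2 fold change -0.47 ± 0.10, edgeR adjusted p = 0.00161). The network-forming COL8A1 averaged 68.2 ± 3.38 CPM at 24 h and 98 ± 12.9 CPM at 4 h (log2 fold change -0.52 ± 0.10, edgeR adjusted p = 5.01e-04), and all 3 chains were lower in every 24 h library. The microfibrillar COL6A1 had 580.1, 517 and 423 CPM at 24 h, against 371, 366 and 315 CPM at 4 h (log2 fold change 0.53 ± 0.11, edgeR adjusted p = 0.00170), higher in every 24 h library. Its partner COL6A2 rose likewise (0.48), and was not called without control 24 h number 12 or control 4 h number 14. COL3A1 had 428, 359.7 and 275 CPM at 24 h, against 319, 206 and 181 CPM at 4 h. COL1A2 had 17.8, 14.7 and 12.4 CPM at 24 h, against 25.1, 16.9 and 17.9 CPM at 4 h. The groups of both overlapped and neither was called in the main fit. COL3A1 was called higher by limma-voom, without a filter, without control 4 h number 12 and without number 12 in all groups. COL1A2 was called lower without a filter. With a replicate block, in all 18 libraries or in the 6, COL3A1 was called higher and COL1A2 lower.

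Adhesive glycoproteins and integrins fell more often than they rose. Of 22 matrix glycoproteins tested, 7 fell (4 without any one of control 24 h number 13 or 14 or control 4 h number 13 or 14, 11 without a filter) and 1 rose (2 without control 24 h number 14 or control 4 h number 12). THBS1, thrombospondin 1, which can activate latent TGF-beta, had 242, 252 and 249 CPM at 24 h, against 345, 488 and 413 CPM at 4 h (log2 fold change -0.75 ± 0.12, edgeR adjusted p = 9.90e-05). THBS2 had 392, 355 and 367 CPM at 24 h, against 540.0, 702 and 674 CPM at 4 h (log2 fold change -0.78 ± 0.13, edgeR adjusted p = 3.12e-04). The laminin chain LAMC1 averaged 329.6 ± 16.2 CPM at 24 h and 495 ± 94.4 CPM at 4 h (log2 fold change -0.59 ± 0.12, edgeR adjusted p = 0.00135). Fibronectin, FN1, fell (-0.56), and the basement membrane protein gene NID2 rose (0.62). Of 15 integrin subunits, 6 fell and 3 rose (5 rose in the fit of the 6 libraries). ITGA5, the fibronectin receptor subunit, had 276, 277 and 272 CPM at 24 h, against 341, 503 and 451 CPM at 4 h (log2 fold change -0.65 ± 0.10, edgeR adjusted p = 8.13e-05). ITGA4 (-0.89), ITGB8 (-0.68), ITGB1 (-0.51), ITGA6 (-0.71) and ITGA3 (-0.24) fell too. ITGB4, of the hemidesmosome integrin to which plakins attach, had 58.3, 52.9 and 43.8 CPM at 24 h, against 34.6, 33.3 and 33.7 CPM at 4 h (log2 fold change 0.61 ± 0.10, edgeR adjusted p = 1.88e-04). ITGA10 (1.03) and ITGB5 (0.28) were higher too. The groups of ITGA5 and of ITGB4 were apart, in opposite directions.

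Of 22 matrix proteases and inhibitors, 6 fell and 1 rose, with a median of -0.36. Without a filter on low counts 25 were tested and 11 were called lower. ADAM19, a membrane metalloprotease, had 49.1, 50.7 and 47.0 CPM at 24 h, against 85.8, 143 and 124 CPM at 4 h (log2 fold change -1.27 ± 0.13, edgeR adjusted p = 1.03e-06). TIMP3, a matrix-bound inhibitor of metalloproteases, had 288, 264 and 256 CPM at 24 h, against 416, 474 and 409 CPM at 4 h (log2 fold change -0.68 ± 0.08, edgeR adjusted p = 3.69e-06). Both were lower in every 24 h library. ADAMTS6 (-0.69), ADAMTS1 (-0.74), MMP15 (-0.45) and ADAM9 (-0.29) fell and MMP19 (0.43) rose. MMP19 was not called without control 24 h number 12 or control 4 h number 14. TIMP1, the inhibitor most used as a fibrosis marker, averaged 249.7 ± 0.604 CPM at 24 h and 290.3 ± 28.9 CPM at 4 h and was not called (log2 fold change -0.22 ± 0.09, edgeR adjusted p = 0.0968).

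Mitotic genes were all on the low side, by small amounts. Each of the 35 tested had a negative fold change, from -0.47 to -0.03, with a median of -0.30. Of them 16 were called lower and none higher, where 7.15% of all genes were lower. The number called was 6 without control 24 h number 12, 9 without control 24 h number 13, 9 without control 4 h number 14 and 10 without number 12 in all groups. KIF23, a kinesin of the central spindle, had 198, 205 and 224 CPM at 24 h, against 269, 273 and 293 CPM at 4 h (log2 fold change -0.41 ± 0.09, edgeR adjusted p = 0.00356). CCNB1, the cyclin of entry into mitosis, had 326, 318 and 334 CPM at 24 h, against 445, 386 and 415 CPM at 4 h (log2 fold change -0.35 ± 0.08, edgeR adjusted p = 0.00620). BUB3, a spindle checkpoint protein, had 155, 171 and 185 CPM at 24 h, against 225, 237 and 245 CPM at 4 h (log2 fold change -0.47 ± 0.09, edgeR adjusted p = 0.00109). These groups were apart, by less than 1.5-fold in the means. The proliferation marker MKI67 had 777, 794 and 751 CPM at 24 h, against 789, 981 and 1175 CPM at 4 h, with overlapping groups and no call. MKI67 was called lower without control 4 h number 12, without a filter and in the fits of the 6 libraries with or without a replicate block. Of 35 genes of DNA replication and the G1/S step, 2 fell (RRM2, -0.33, and EXO1, -0.36), none rose, and the median was -0.04. Those 2 were near the 7.15% of all genes tested that fell. Replication-dependent histones, whose transcripts lack a poly(A) tail and so report on RNA quality and selection, summed to 101 to 113 CPM at 24 h and 136 to 165 CPM at 4 h. Their median was -0.47 and 3 of 15 were called lower. Their part in the mitotic result was not tested.

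The CHR letters TTTGAA, known from promoters of mitotic genes, were in 20 of the 28 mitotic genes tested with a promoter entry, in 9 of the 14 called ones and in 15.4% of all promoters (both strands; any overlap with other motifs was allowed). The match thus describes the list and not the change. Both promoters below are shown because the motif lies near the start (capitals):
KIF23 (chr15:69414149-69414348, plus strand): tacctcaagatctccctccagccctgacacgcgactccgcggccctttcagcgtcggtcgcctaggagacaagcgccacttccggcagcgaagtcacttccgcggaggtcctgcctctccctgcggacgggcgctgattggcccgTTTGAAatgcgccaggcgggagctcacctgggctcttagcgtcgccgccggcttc
CCNB2 (chr15:59104946-59105145, plus strand): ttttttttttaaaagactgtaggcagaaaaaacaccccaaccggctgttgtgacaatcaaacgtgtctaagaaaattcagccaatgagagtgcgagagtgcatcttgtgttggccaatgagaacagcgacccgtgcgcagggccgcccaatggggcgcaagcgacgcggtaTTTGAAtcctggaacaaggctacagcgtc

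Growth factor genes leaned lower. Of 31 ligand genes listed, 23 were tested, 6 fell and 2 rose (1 without control 24 h number 13 or 14 or control 4 h number 13 or 14), with a median of -0.21. NRG1, neuregulin 1, the ligand of ERBB3, had 35.2, 33.0 and 44.9 CPM at 24 h, against 61.5, 81.4 and 75.8 CPM at 4 h (log2 fold change -0.95 ± 0.11, edgeR adjusted p = 2.25e-06). FGF2 averaged 51.2 ± 6.32 CPM at 24 h and 73.1 ± 8.97 CPM at 4 h (log2 fold change -0.51 ± 0.10, edgeR adjusted p = 0.00140). FGF1 averaged 11.8 ± 1.2 CPM at 24 h and 19.3 ± 3.57 CPM at 4 h (log2 fold change -0.71 ± 0.13, edgeR adjusted p = 4.80e-04). PDGFA (-0.47), BDNF (-0.65) and HBEGF (-0.47) also fell. CSF1 (0.45) and HGF (1.09) rose. A list of IGF-binding proteins, IGF2BP RNA-binding proteins and PAPPA had 10 genes tested, of which 4 fell and none rose. Those that fell were IGFBP3, IGFBP4, IGFBP6 and IGF2BP2. The number was 2 without any one of control 24 h number 12 or 13 or control 4 h number 13 or 14. In this list 1 was called higher by DESeq2, without a filter, and without control 24 h number 14 or control 4 h number 12. IGFBP6, which binds IGF-II, had 109.5, 110.0 and 101 CPM at 24 h, against 257, 255 and 214 CPM at 4 h (log2 fold change -1.18 ± 0.11, edgeR adjusted p = 5.91e-08), well apart between the groups. Of 22 growth factor receptors, 4 rose, including the collagen receptor DDR1 (0.59) and the insulin receptor INSR (0.43). Over all genes tested 8.10% rose. NRP2 (-0.57) and AXL (-0.28) were the 2 receptors that fell, near the 7.15% of all genes. The number that fell was 1 without any one of control 24 h number 12 or 13 or control 4 h number 13 or 14, and 5 without control 4 h number 12. PDGFRB had 95.5, 74.7 and 60.5 CPM at 24 h, against 64.7, 56.3 and 48.1 CPM at 4 h, with overlapping groups and no call. It was called higher by DESeq2, without a filter, and without control 24 h number 14 or control 4 h number 12. With a replicate block, in all 18 libraries or in the 6, PDGFRB was also called higher.

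Early response genes did not move as a block. Of 27 tested, 6 fell (3 without control 24 h number 12 or control 4 h number 13), 4 rose and the median was 0.02. MYC had 106, 99.9 and 104 CPM at 24 h, against 141, 165 and 138 CPM at 4 h (log2 fold change -0.52 ± 0.08, edgeR adjusted p = 9.38e-05). FOSL1, an AP-1 subunit, had 203, 226 and 254 CPM at 24 h, against 349.5, 526 and 530.3 CPM at 4 h (log2 fold change -1.04 ± 0.16, edgeR adjusted p = 2.34e-04). KLF4, a Kruppel-like factor linked to quiescence, had 49.5, 57.5 and 50.3 CPM at 24 h, against 23.6, 34.1 and 23.2 CPM at 4 h (log2 fold change 0.95 ± 0.16, edgeR adjusted p = 2.34e-04). These groups were apart, MYC and FOSL1 lower and KLF4 higher at 24 h. The orphan receptor NR4A1 (0.69), BTG2 (0.77) and NR4A2 (0.53) rose, and JUN (-0.47), KLF2 (-0.57), DUSP1 (-0.40) and IER2 (-0.34) fell. FOS had 4.34, 3.43 and 3.30 CPM at 24 h, against 3.85, 4.37 and 2.71 CPM at 4 h. EGR1 had 63.0, 65.4 and 51.7 CPM at 24 h, against 70.3, 24.6 and 18.2 CPM at 4 h. The groups overlapped for both. Control 4 h number 12 was the highest library for EGR1, which was called higher at 24 h without that library or without a filter.

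Growth arrest and FOXO-responsive genes rose in 7 of 23 and fell in 4, with a median of 0.18. The count that fell was 1 without control 24 h number 12 and 2 without any one of control 24 h number 14, control 4 h number 13 or 14, or number 12 in all groups. TXNIP, an inhibitor of glucose uptake and thioredoxin, had 126, 115 and 101 CPM at 24 h, against 81.0, 82.3 and 73.7 CPM at 4 h (log2 fold change 0.53 ± 0.11, edgeR adjusted p = 0.00111). GAS6, the ligand of AXL first found in growth-arrested fibroblasts, had 260.4, 259 and 251 CPM at 24 h, against 225, 176 and 164 CPM at 4 h (log2 fold change 0.45 ± 0.10, edgeR adjusted p = 0.00311). MXI1, an antagonist of MYC, had 24.9, 26.5 and 22.6 CPM at 24 h, against 17.9, 17.8 and 14.3 CPM at 4 h (log2 fold change 0.56 ± 0.12, edgeR adjusted p = 0.00270). All 3 were higher in every 24 h library. The 4 that fell were the cell cycle inhibitors CDKN1B (-0.33) and CDKN2B (-0.31), and IRS2 (-0.41) and SESN3 (-0.28). CDKN1A had 89.5, 81.6 and 82.9 CPM at 24 h, against 65.2, 77.1 and 71.8 CPM at 4 h without a call (log2 fold change 0.25 ± 0.10, edgeR adjusted p = 0.111).

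Several Hedgehog genes rose, where 8.10% of all genes tested rose. Of 14 tested, 4 rose and none fell, and the transcription factor GLI1, the transducer SMO and the receptor PTCH1 were among those that rose. GLI1, which is both effector and target of the pathway, had 21.3, 20.4 and 17.8 CPM in the control 24 h libraries and 9.77, 9.66 and 7.44 CPM in the control 4 h libraries (log2 fold change 1.13 ± 0.15, edgeR adjusted p = 9.12e-06). SMO had 74.1, 72.0 and 65.5 CPM at 24 h, against 46.6, 41.8 and 47.3 CPM at 4 h (log2 fold change 0.64 ± 0.09, edgeR adjusted p = 4.28e-05). PTCH1, also a target, had 35.2, 33.3 and 29.2 CPM at 24 h, against 24.2, 20.4 and 20.8 CPM at 4 h (log2 fold change 0.58 ± 0.11, edgeR adjusted p = 5.53e-04). The groups of each were apart, and GLI1 was 2.19-fold higher at 24 h. GLI2 (-0.08) and GLI3 (0.14) were not called. HHIP, an inhibitor that binds Hedgehog ligands, had the largest fold change of the list in size at a low level, with 0.601, 0.132 and 0.601 CPM at 24 h, against 0.888, 1.01 and 1.18 CPM at 4 h, and was not called (log2 fold change -1.18 ± 0.43, edgeR adjusted p = 0.0664). In this list 1 gene was called lower by limma-voom and without a filter on low counts. The GLI letters GACCACCCA, chosen after the values were seen, were in PTCH1, 1 of 2 of these genes with a promoter entry, and in 0.249% of all promoters. RefSeq lists 5 starts for PTCH1, and the first listed was used, which lies inside the span of the gene. Capitals mark the motif on the opposite strand, shown as the target gene that carries it:
PTCH1 (chr9:95509267-95509466, minus strand): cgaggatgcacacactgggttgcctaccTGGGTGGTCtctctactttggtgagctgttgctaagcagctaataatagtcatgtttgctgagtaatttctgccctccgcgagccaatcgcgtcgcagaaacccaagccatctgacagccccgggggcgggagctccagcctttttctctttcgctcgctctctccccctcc

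Several cholesterol synthesis and uptake genes were lower at 24 h. Of 26 tested, 8 fell and 1 rose, with a median of -0.15. Without control 24 h number 12 there were 3 lower, without control 24 h number 13 there were 5 lower, without control 4 h number 12 there were 3 higher, without a filter there were 2 higher, and without number 12 in all groups there were 5 lower and 5 higher. INSIG1, the sterol-responsive anchor of SREBP, had 452, 507 and 516 CPM at 24 h, against 841, 777 and 784 CPM at 4 h (log2 fold change -0.70 ± 0.08, edgeR adjusted p = 1.59e-06). HMGCS1, which starts the mevalonate pathway, had 663, 819 and 895 CPM at 24 h, against 1418, 1140.3 and 1218 CPM at 4 h (log2 fold change -0.67 ± 0.14, edgeR adjusted p = 0.00308). In both genes the 24 h libraries lay below the 4 h libraries, and number 12 was the lowest of the 24 h group. IDI1 (-0.44), STARD4 (-0.37), NSDHL (-0.31) and SQLE (-0.27) also fell. SREBF2, the regulator of the pathway, rose, averaging 693 ± 39.4 CPM at 24 h and 547 ± 7.61 CPM at 4 h (log2 fold change 0.34 ± 0.08, edgeR adjusted p = 0.00453). The sterol element TCACNCCAC was in none of the 5 falling genes with an entry and in 1.15% of all promoters. Of the 19 genes of this list tested with an entry, 1 held it. Fatty acid genes split, 3 lower and 3 higher of 20, beside 7.15% lower and 8.10% higher of all genes tested. The desaturase FADS1 had 609, 579 and 586 CPM at 24 h, against 389.9, 416 and 397 CPM at 4 h (log2 fold change 0.56 ± 0.09, edgeR adjusted p = 9.45e-05). FADS2 (0.38) and SCD5 (0.53) also rose, and GPAM (-0.63), LPIN1 (-0.40) and FASN (-0.39) fell.

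Of 28 glycolysis and hypoxia response genes, 6 fell and 2 rose (1 in 5 of the 6 fits that left out 1 library, all but the one without control 4 h number 12, and 1 without a filter). LDHA, lactate dehydrogenase A, had 168, 164 and 183 CPM at 24 h, against 246, 262 and 247 CPM at 4 h (log2 fold change -0.55 ± 0.08, edgeR adjusted p = 4.18e-05). ENO1 averaged 650.1 ± 34.6 CPM at 24 h and 850.2 ± 32.1 CPM at 4 h (log2 fold change -0.39 ± 0.08, edgeR adjusted p = 0.00252). GAPDH (-0.24), TPI1 (-0.25), PGAM1 (-0.29) and NDRG1 (-0.65) were lower too. ENO2, the second enolase, went the other way, with 129, 123 and 124 CPM at 24 h, against 68.3, 64.0 and 61.1 CPM at 4 h (log2 fold change 0.96 ± 0.08, edgeR adjusted p = 1.36e-08). The groups of LDHA and ENO2 were far apart in opposite directions. Lysosome and autophagy genes rose in 6 of 26 and fell in 1, beside 8.10% and 7.15% of all genes tested. The autophagy receptor SQSTM1 had 873, 888 and 964 CPM at 24 h, against 663, 612 and 598 CPM at 4 h (log2 fold change 0.54 ± 0.09, edgeR adjusted p = 2.34e-04). GABARAPL1 (0.61) was higher as well. The protease CTSL was lower, with 132, 149.6 and 164 CPM at 24 h, against 239, 287 and 299 CPM at 4 h (log2 fold change -0.89 ± 0.13, edgeR adjusted p = 1.06e-04).

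Calcium and NFAT genes rose in 6 of 18 and fell in 2, beside 8.10% and 7.15% of all genes tested. There were 3 higher without control 24 h number 13, 3 higher and 4 lower without control 4 h number 12, and 1 lower without control 24 h number 14. NFATC2 had 2.41, 1.12 and 2.34 CPM at 24 h, against 4.26, 7.19 and 7.02 CPM at 4 h (log2 fold change -1.65 ± 0.27, edgeR adjusted p = 1.75e-04). Its relative NFATC4 had 92.9, 82.4 and 75.1 CPM at 24 h, against 59.8, 48.8 and 50.1 CPM at 4 h (log2 fold change 0.66 ± 0.11, edgeR adjusted p = 1.94e-04). The 2 transcription factors thus differed in direction, with no overlap of groups for either. NPPB, the B-type natriuretic peptide precursor, had 0.535, 0.0660 and 0.360 CPM at 24 h, against 2.37, 1.99 and 2.78 CPM at 4 h (log2 fold change -2.85 ± 0.39, edgeR adjusted p = 1.43e-05), near 0 in all 24 h libraries. NPR2, a natriuretic peptide receptor, averaged 5.07 ± 0.0808 CPM at 24 h and 2.87 ± 0.648 CPM at 4 h (log2 fold change 0.82 ± 0.19, edgeR adjusted p = 0.00426). Complement genes rose in 3 of 14 and fell in 2, small counts beside the same 8.10% and 7.15%. Clusterin, CLU, had 470.1, 474 and 405 CPM at 24 h, against 301, 256 and 239 CPM at 4 h (log2 fold change 0.76 ± 0.10, edgeR adjusted p = 9.57e-06). The membrane inhibitors CD55 (-0.62) and CD59 (-0.45) fell. Of 9 cholangiocyte and epithelial markers, 6 were tested and 3 fell (5 without a filter). The 9 summed to 335 to 365 CPM at 24 h and 451 to 536 CPM at 4 h. SOX9, the most abundant of them, averaged 165 CPM at 24 h and 219 CPM at 4 h. It was not called (log2 fold change -0.41 ± 0.17, edgeR adjusted p = 0.12). KRT8 had 122, 109 and 91.2 CPM at 24 h, against 184, 179.6 and 149 CPM at 4 h (log2 fold change -0.67 ± 0.13, edgeR adjusted p = 0.00104). KRT18 (-0.47) and KRT7 (-0.63) were lower, and KRT7 was not called without control 24 h number 13 or control 4 h number 12. EPCAM and CDH1 were at or near 0.

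**Figure D4:**
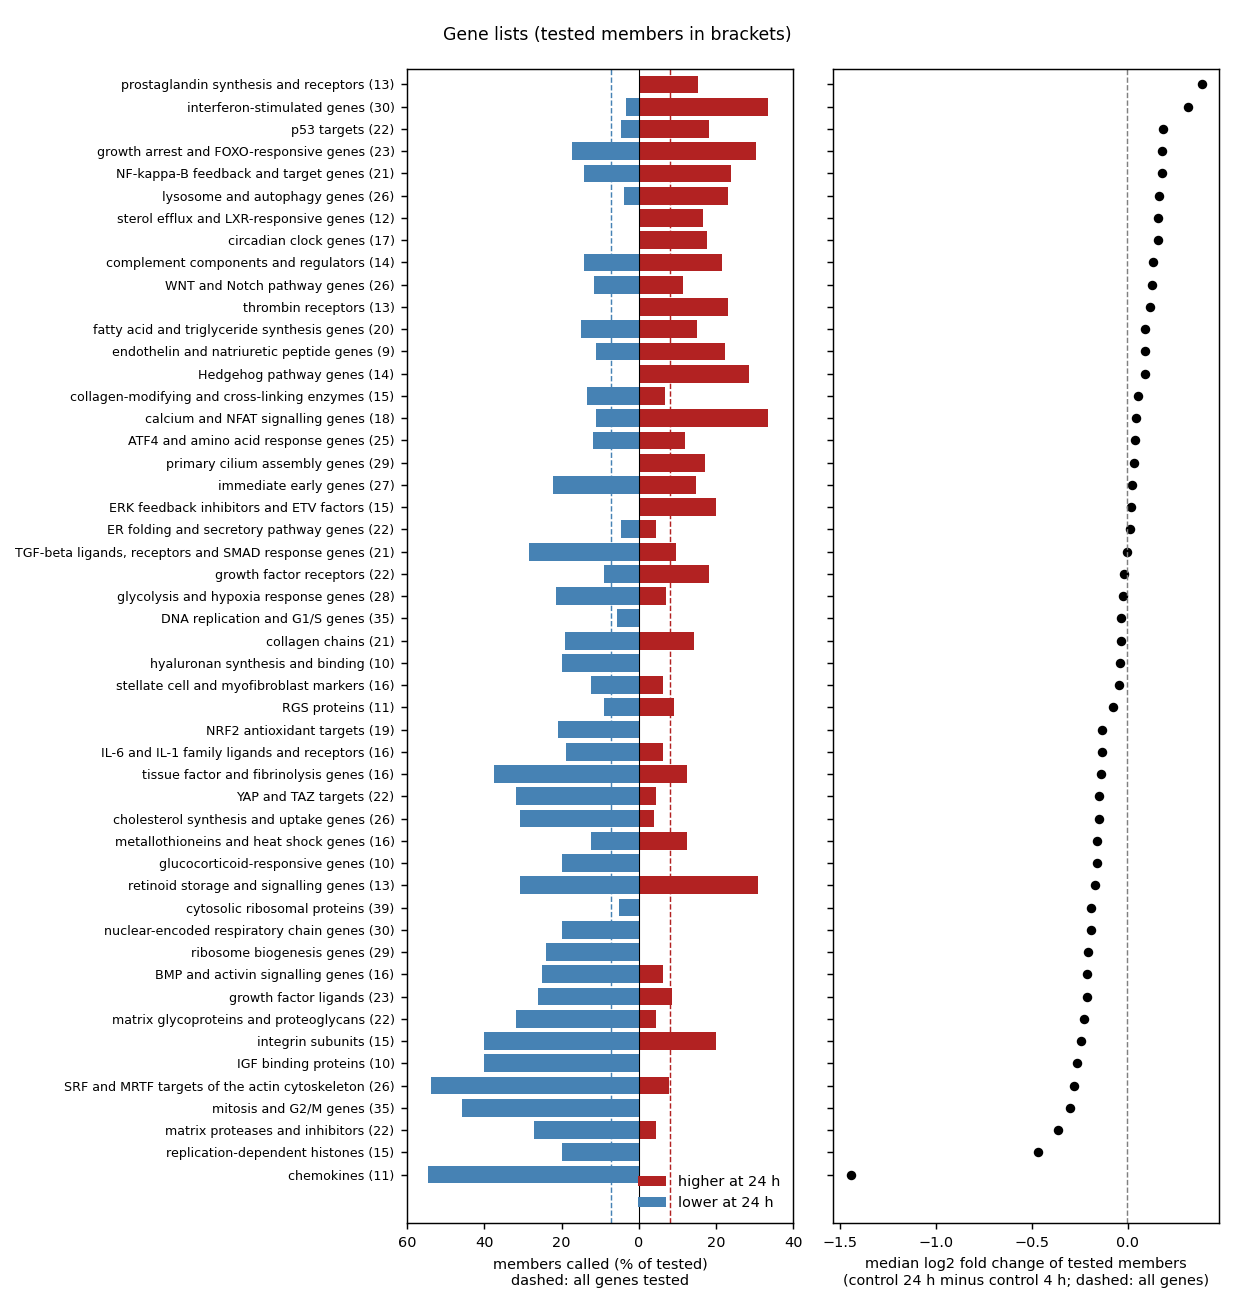
Gene lists with at least 9 tested members (number in brackets): left, share of tested members called higher (red, to the right) or lower (blue, to the left) at 24 h relative to 4 h in control medium, with dashed lines at 8.10% and 7.15% for all genes tested; right, median log2 fold change. Chemokines have the lowest median, -1.44, and SRF and MRTF targets are called lower in 14 of 26.

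The control 48 h libraries are set beside these values. The comparisons with 48 h share control libraries with that of 24 h against 4 h and are no independent evidence. Between 48 h and 24 h 940 genes were called (6.12%) and between 48 h and 4 h 1217 (7.93%). TAGLN was low at 24 h alone, with 72.8 ± 5.77 CPM at 4 h, 25.1 ± 1.92 CPM at 24 h and 78.1 ± 15.2 CPM at 48 h, and 48 h against 24 h gave log2 fold change 1.64 ± 0.13, edgeR adjusted p = 1.36e-08. KIF23, of the mitotic list, had 278 ± 13.0 CPM at 4 h, 209 ± 13.2 CPM at 24 h and 282 ± 15.9 CPM at 48 h (log2 fold change 0.43 ± 0.09, edgeR adjusted p = 0.00787 for 48 h against 24 h). In both genes the 48 h mean was at or above the 4 h mean. PLAT stayed low, with 927 ± 228 CPM at 4 h, 295 ± 15.7 CPM at 24 h and 323 ± 8.20 CPM at 48 h (log2 fold change 0.13 ± 0.14, edgeR adjusted p = 0.619). RARB had 11.0 ± 1.82 CPM at 4 h, 2.14 ± 0.541 CPM at 24 h and 3.35 ± 0.264 CPM at 48 h (log2 fold change 0.63 ± 0.23, edgeR adjusted p = 0.0946). INSIG1 had 801 ± 34.8 CPM at 4 h, 492 ± 34.2 CPM at 24 h and 487 ± 15.5 CPM at 48 h (log2 fold change -0.01 ± 0.08, edgeR adjusted p = 0.944). For these the 48 h means stayed near those of 24 h. F2R returned towards its early level, with 175 ± 15.6 CPM at 4 h, 274 ± 8.72 CPM at 24 h and 192 ± 1.02 CPM at 48 h (log2 fold change -0.51 ± 0.08, edgeR adjusted p = 3.63e-04), and PPL stood between, with 17.5 ± 6.81 CPM at 4 h, 79.9 ± 16.5 CPM at 24 h and 37.9 ± 4.40 CPM at 48 h (log2 fold change -1.07 ± 0.24, edgeR adjusted p = 0.0160).

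**Figure D5:**
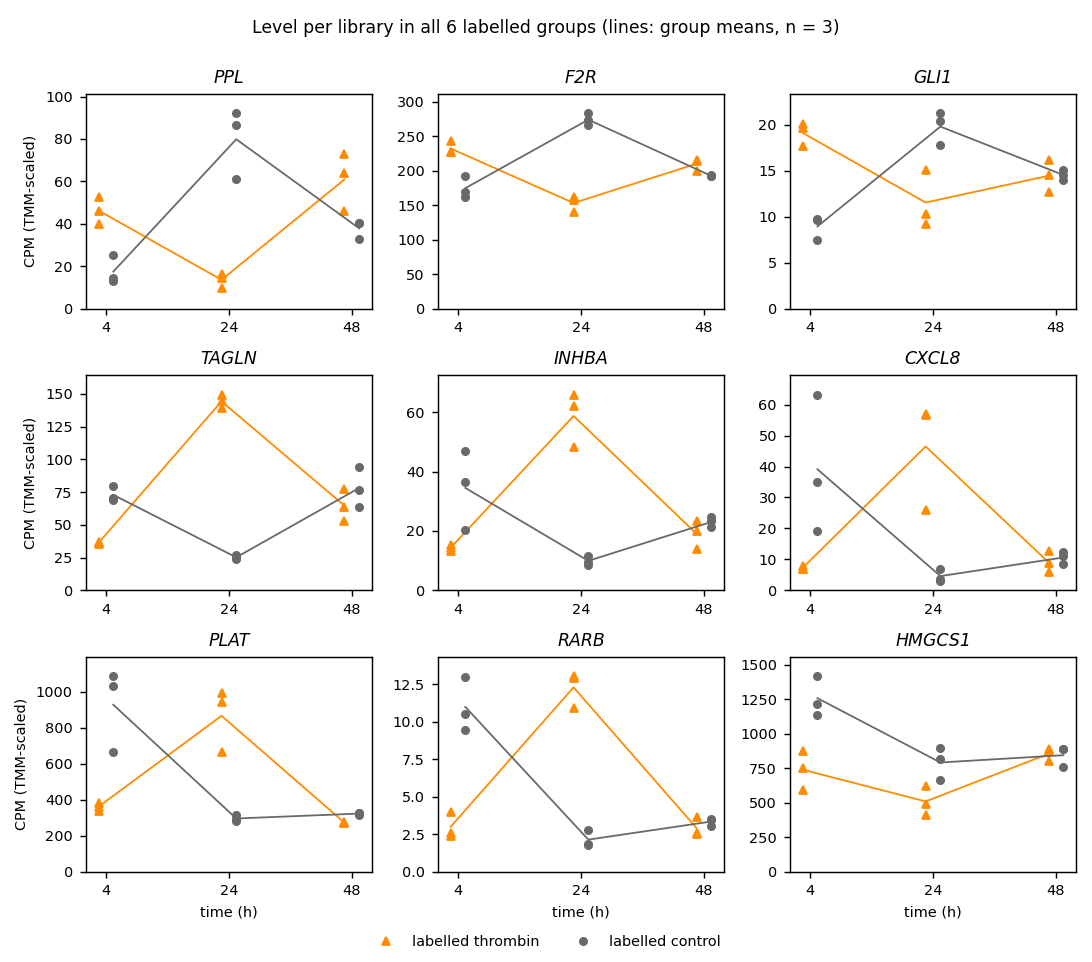
Level of 9 genes in all 18 libraries by time (points, libraries; lines, group means, n = 3; CPM, axes from 0), labelled thrombin (triangles) and labelled control (circles). For PPL, F2R, GLI1, TAGLN, INHBA, CXCL8, PLAT and RARB the 24 h against 4 h change has opposite directions in the libraries labelled thrombin and labelled control.

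In the libraries labelled thrombin, many of these genes changed in the other direction over the same interval. Of the 1243 genes that rose in control medium, 512 (41.2%) fell and 11 rose between thrombin 24 h and thrombin 4 h, where 15.1% of all genes were called. These 512 were 45.8% of the genes that fell there. Of the 1097 that fell in control medium, 492 (44.9%) rose and 10 fell, and these 492 were 40.8% of the genes that rose there. The difference between the 2 time effects, thrombin minus control, was called for 4293 genes (28.0%), 2095 with a positive and 2198 with a negative value. F2R changed by -0.60 ± 0.08 with thrombin and by 0.65 ± 0.08 in control medium, and TAGLN by 2.00 ± 0.12 and -1.53 ± 0.13. HMGCS1 did not share this, and changed by -0.54 ± 0.14 with thrombin and by -0.67 ± 0.14 in control medium.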

How the data were processed

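The authors deposited raw counts per gene symbol for 18 libraries; per the labels' protocols these were poly(A)-enriched libraries of total RNA from LX-2 cells. The submitters' processing notes list the tools cutadapt 4.9, Bowtie2 2.5.4 and SAMtools 1.21, name DESeq2 without a version, and give GRCh38 as the build. The counter, annotation and strand setting are not given in the sources used here, so genes with near-identical copies and overlapping antisense genes are uncertain. All columns matched a library by name (0 left over). Of 28278 symbols, 4439 had no count, and 26998 (95.5%) matched the RefSeq table.

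The analysis used edgeR 4.0.16 (R 4.3.3). Genes were filtered with filterByExpr (minimum count 10, minimum total 15), which kept 15353 genes with at least 99.9% of each library's counts, and TMM factors were 0.945 to 1.031. A robust quasi-likelihood model of 6 group means was fitted to all 18 libraries, with 12 residual degrees of freedom and a BCV of 9.07%. Tests were two-sided with Benjamini-Hochberg adjustment, and a standard error is the size of the fold change over the root of its F statistic. Alternatives included voom from limma 3.58.1 and DESeq2 1.42.0. On data simulated from these libraries (15159 genes, 200 of them changed), the tests found 58.2% of genes changed 1.5-fold, 86.2% of those changed 2-fold and 97.0% of those changed 4-fold, with 4.79% false calls.

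The groups, 54 gene lists (1134 entries) and the rule for named genes were chosen with earlier results of these data known. The rule took the 12 largest called changes each way with at least 5 CPM in the higher group and no overlap of groups. It added the 5 most abundant called genes each way and 30 anchor genes. From each list with at least 3 genes tested and 25% called it took up to 4 genes, those of smallest adjusted p. Other list members are named to complete a list's calls or as well-known members, after their values were seen. Lists were described by counts and medians, without a set test. Results for some genes are not reported here.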

Additional observations from a re-analysis of the deposited data

Results flagged for a closer look

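The change from 4 h to 24 h differed between the libraries labelled thrombin and those labelled control, by edgeR's test of the difference of the 2 time effects, for 4293 genes. The same test was made for the 6 largest changes in each direction in control medium, and all 12 differed. Differences are thrombin minus control on the log2 scale. For genes higher at 24 h in control medium the difference was -3.96 for PPL, -2.78 for CDK18, -1.94 for TMOD1, -1.33 for MIAT (edgeR adjusted p = 0.0456), -1.94 for PLXDC1 and -2.00 for MYO7A. For genes lower at 24 h in control medium it was 7.88 for KRTAP2-3 (edgeR adjusted p = 2.50e-07), 5.78 for CXCL8 (edgeR adjusted p = 3.00e-05), 4.58 for KRT34, 4.24 for ESM1, 4.80 for SERPINB2 and 4.21 for BTBD11. These 12 genes were chosen for their size in the control comparison, whose libraries enter the difference, so their differences are no independent evidence of that change. PPL changed by -1.77 ± 0.26 with thrombin and by 2.19 ± 0.25 in control medium, and CXCL8 by 2.69 ± 0.45 and -3.09 ± 0.49. The part that the labels of the groups play in these differences was not tested.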

How the results depend on the processing

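The counts of 1243 higher and 1097 lower genes were 80 and 162 when a 2-fold difference was also asked for, and 273 and 284 when edgeR tested against a 1.2-fold change, settings that ask for larger changes by construction. Leaving out 1 library gave 702 to 1190 higher and 584 to 1124 lower, the fewest without control 24 h number 12, and for 48 h against 24 h 96 to 575 higher and 118 to 560 lower, for 48 h against 4 h 223 to 783 higher and 302 to 726 lower, and for the difference of time effects 1670 to 2306 higher and 1800 to 2404 lower; the cause was not tested. Other normalizations (1298 and 1067 with DESeq2 size factors, 1131 and 1173 with upper quartiles), filters, DESeq2 (1416 and 1163), limma-voom (1221 and 1053), the fit of the 6 libraries alone (1230 and 1206) and that of the 9 control libraries, chosen after seeing the data (1306 and 1156), stayed within 1.5 times. Of the 167 named genes, 151 were called in the main fit. None of these reversed direction in any setting, and the most calls lost were 21, without control 24 h number 12. Same-numbered libraries correlated in their deviations at 0.12, -0.01 and 0.13 for numbers 12, 13 and 14. Differently numbered libraries correlated at -0.14 to 0.04. Deviations from a mean of 3 libraries cannot settle whether the numbers pair the groups, and the main fit used no pairing. With a replicate block there were 1243 higher and 1106 lower in all 18 libraries. In the 6 libraries there were 1527 and 1501 with the block, against 1230 and 1206 without it. Genes changed 1.5-fold were called in 58.2% of simulated cases at this depth and number of libraries, and other depths were not simulated. The simulation changed 200 of 15159 genes, whereas 15.2% of genes tested were called in the data. Recovery at such a share was not simulated. Counts within gene lists also moved under other settings, and not every move is given beside its list. Without number 12 in all groups, 3 calcium and NFAT genes were called higher and 4 lower. The same fit called 4 growth factor receptors lower. It called 2 BMP and activin genes, 1 TGF-beta and SMAD gene and 1 coagulation gene higher. With the replicate block in the 6 libraries, 25 mitotic genes and 11 proteases and inhibitors were called lower, and 5 epithelial markers. In the same fit 5 collagen chains, 5 integrins, 3 YAP and TAZ targets, 2 matrix glycoproteins, 2 cholesterol genes, 1 chemokine and 1 gene of the IGF list were called higher.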

Other observations

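Further gene groups held calls in control medium between 24 h and 4 h, where 8.10% of all genes tested were higher and 7.15% lower. Nuclear-encoded respiratory chain genes were lower in 6 of 30 and higher in none, with a median of -0.19 and 26 negative fold changes, among them NDUFA4 (-0.64), NDUFB9 (-0.49) and the cytochrome c gene CYCS (-0.37). Ribosome biogenesis genes were lower in 7 of 29 and higher in none, with a median of -0.21, led by RRP12 (-0.41), NPM1 (-0.41) and NCL (-0.33), which encodes nucleolin. Cytosolic ribosomal proteins, whose pseudogenes make their levels uncertain, had a negative fold change in 36 of 39 with a median of -0.19, but RPL5 and RPL23 were the only members called, 2 of 39, which is below the share of all genes. Among NRF2 targets 4 of 19 fell, namely NQO1 (-0.69), GCLM (-0.62), AKR1C1 (-0.71) and TXNRD1 (-0.27), and none rose. Primary cilium assembly genes rose in 5 of 29 and fell in none, with IFT140 (0.53) the largest among those called.

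Some single genes, chosen after their values were seen, changed by more than their lists. The p53 and stress-responsive cytokine GDF15 rose (log2 fold change 1.64 ± 0.30, edgeR adjusted p = 4.71e-04), as did SPATA18 (1.13), while 17 of the 22 p53 targets were not called. Both were low. GDF15 averaged 2.71 CPM at 24 h and 0.855 CPM at 4 h, and SPATA18 averaged 1.91 CPM and 0.870 CPM. The amino acid transporter SLC7A5 fell (log2 fold change -1.14 ± 0.14, edgeR adjusted p = 4.31e-06) and the stress regulator NUPR1 rose (log2 fold change 0.98 ± 0.19, edgeR adjusted p = 9.22e-04) within an ATF4 list with 3 lower and 3 higher of 25. SPRY1, an inhibitor of receptor tyrosine kinase signalling, rose (log2 fold change 1.62 ± 0.48, edgeR adjusted p = 0.0239). Its level was low, averaging 1.88 ± 0.803 CPM at 24 h and 0.581 ± 0.329 CPM at 4 h. The collagen cross-linking enzyme LOXL2 fell (log2 fold change -1.05 ± 0.10, edgeR adjusted p = 5.37e-08) and its relative LOXL3 rose (0.73). HAS2, a hyaluronan synthase, fell (log2 fold change -1.97 ± 0.52, edgeR adjusted p = 0.0219), and complement C3 rose (log2 fold change 1.43 ± 0.35, edgeR adjusted p = 0.00570). HAS2 averaged 3.31 ± 1.82 CPM at 24 h and 13.2 ± 6.19 CPM at 4 h. C3 was also low, averaging 3.13 ± 0.704 CPM at 24 h and 1.15 ± 0.190 CPM at 4 h.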
